A study of Mus musculus with 8 samples.

Results

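The forkhead transcription factors described here are the genes of the deposited table whose symbol starts with Fox. There were 6 of them, *Foxa1*, *Foxd1*, *Foxf2*, *Foxl2*, *Foxo6* and *Foxp2*, among 875 listed genes. Each was taken by its name, but the family was chosen with earlier results of these data known. The authors had restricted the table to genes that differed at least 2-fold between EZHIP and control cells, so a difference in that comparison is a property of the table and no finding about these genes. Going by group means, EZHIP cells had more of 5 of them and less of 1, while the whole table held 495 genes with more and 380 with less. Other forkhead genes of the mouse were not analysed here.

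The cells were mouse embryonic fibroblasts (MEFs), which grow out of the connective tissue of an embryo in culture, and their RNA was sequenced in 8 libraries that form 4 groups of 2. All groups go back to MEFs of an E13.5 embryo whose *Eed* alleles carry loxP sites, and these floxed cells, with EED intact, were the control. EZHIP cells expressed human EZHIP from a stably integrated lentivirus, and K27M cells expressed the mutant histone H3.3K27M from the same kind of vector, whose EF1a promoter is active in most cells. EED-null cells were a single clone of the floxed cells in which a transiently acting lentivirus had supplied Cre recombinase. Each group was thus 1 line or clone, and the effect of a transgene or deletion cannot be told apart from the history of that line. *Eed* is not a listed gene, so its loss was not checked in these libraries.

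Forkhead proteins bind DNA through a winged-helix domain, and most of them act in the embryo, where each is switched on in a limited set of tissues. Polycomb repressive complex 2 (PRC2), of which EED is a core subunit, places methyl groups on lysine 27 of histone H3 and keeps many developmental regulators silent in cells that do not use them. H3 K27M and EZHIP are inhibitors of this complex. Genes for developmental transcription factors, forkhead genes among them, often have promoters rich in CpG dinucleotides, the type of promoter at which Polycomb complexes are usually found.

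RefSeq promoters, which run from 250 bases before to 50 bases after an annotated start in GRCm38.p6, were at hand for 4 of the 6 genes. Those of *Foxo6* and *Foxp2* had no entry. The 4 with an entry are shown for their CpG content. Each is written 5′ to 3′ on the strand of its gene with CpG dinucleotides in capitals. The *Foxa1* promoter lies at chr12:57546062-57546361 on the minus strand, and those of *Foxd1* (chr13:98353995-98354294), *Foxf2* (chr13:31625566-31625865) and *Foxl2* (chr9:98955357-98955656) lie on the plus strand.
Foxa1: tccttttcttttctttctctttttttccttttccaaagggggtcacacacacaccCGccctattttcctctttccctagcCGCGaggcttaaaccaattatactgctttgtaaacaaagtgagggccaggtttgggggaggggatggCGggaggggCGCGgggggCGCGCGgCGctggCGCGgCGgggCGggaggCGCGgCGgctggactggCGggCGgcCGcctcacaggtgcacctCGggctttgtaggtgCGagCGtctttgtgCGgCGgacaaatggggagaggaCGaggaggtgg
Foxd1: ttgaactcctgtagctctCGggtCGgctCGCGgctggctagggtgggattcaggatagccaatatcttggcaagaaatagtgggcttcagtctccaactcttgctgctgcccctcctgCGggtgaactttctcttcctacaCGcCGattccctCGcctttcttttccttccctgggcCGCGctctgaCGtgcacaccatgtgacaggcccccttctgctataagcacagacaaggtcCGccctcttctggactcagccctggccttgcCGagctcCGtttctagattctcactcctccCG
Foxf2: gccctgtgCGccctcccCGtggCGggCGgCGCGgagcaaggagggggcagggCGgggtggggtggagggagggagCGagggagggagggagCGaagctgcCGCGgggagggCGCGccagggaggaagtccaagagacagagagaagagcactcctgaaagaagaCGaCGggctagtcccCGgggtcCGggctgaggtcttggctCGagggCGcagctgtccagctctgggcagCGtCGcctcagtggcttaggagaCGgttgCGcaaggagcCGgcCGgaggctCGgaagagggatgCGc
Foxl2: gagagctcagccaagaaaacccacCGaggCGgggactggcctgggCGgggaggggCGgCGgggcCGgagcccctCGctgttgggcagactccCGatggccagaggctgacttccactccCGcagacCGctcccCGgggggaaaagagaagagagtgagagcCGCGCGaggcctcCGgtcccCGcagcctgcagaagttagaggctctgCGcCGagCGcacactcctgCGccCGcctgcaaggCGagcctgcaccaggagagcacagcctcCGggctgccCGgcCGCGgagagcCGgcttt

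The capitals were densest in the promoters of *Foxf2* and *Foxl2*, with 27 CpG dinucleotides each in 300 bases, and *Foxa1* had 26. *Foxd1* had 15. The median was 7 over the 32851 mouse promoters of the same length and 17 over the promoters of 561 listed genes. Thus 84.5% of all promoters had fewer CpG dinucleotides than *Foxf2* or *Foxl2*, 83.1% had fewer than *Foxa1* and 65.4% had fewer than *Foxd1*. The GC content of the 4 promoters was 62.3% for *Foxa1*, 57.7% for *Foxd1* and 71.3% for both *Foxf2* and *Foxl2*, against a median of 52.7% over all promoters, 61% over those of listed genes and 64% over those of 20 other listed developmental transcription factors. The last set had a median of 23 CpG dinucleotides, above *Foxd1* and below the other 3. A core of the forkhead recognition sequence, TGTTTAC or GTAAACA on the other strand, occurred once in the *Foxa1* promoter, where it starts 141 bases before the annotated start, and in none of the other 3 windows. The same letters were present in 3.65% of all promoters and 3.39% of those of listed genes. A match of letters is not a binding site, and its absence concerns these 300 bases only.

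**Figure D1:**
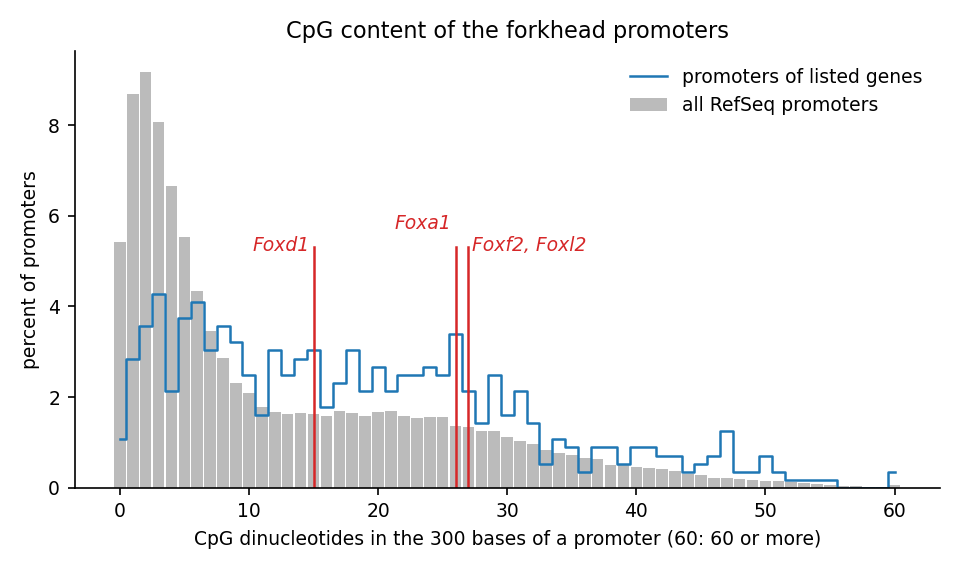
Number of CpG dinucleotides in the 300 bases of a promoter (x axis) against the percent of promoters with that number (y axis), for all RefSeq promoters (grey bars) and those of listed genes (blue line). Red lines mark *Foxd1* at 15, *Foxa1* at 26 and *Foxf2* and *Foxl2* at 27, all above the median of 7 over all promoters.

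Expression is given as the deposited normalized value, an estimated number of reads divided by 1 size factor per library and not scaled by gene length. The value of 1 read was inferred from the steps between the values of a library and lay between 0.738 and 1.39 of these units. By this estimate the listed genes held between 209390 and 424561 reads per library, and all read numbers below rest on it. A group with at most 3 reads of a gene in each of its libraries was taken to be at the limit of detection. Groups were compared with limma on log2(value + 1) over all listed genes, and a gene was called higher or lower at a Benjamini-Hochberg adjusted p-value under 0.05 and a difference of at least 2-fold. With 2 libraries in each group, the smallest two-sided p-value of an exact permutation test is 0.333, so a call depends on limma pooling the spread of all genes. The labels do not say whether the replicates were separate cultures, and the p-values measure the spread between these libraries, which may be technical. Of 12 fibroblast markers 3 were listed, and the collagen gene *Col3a1* was at 17665 and 17245 in the control libraries.

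In control fibroblasts, *Foxa1*, *Foxf2* and *Foxl2* were at the limit of detection, *Foxd1* and *Foxo6* had low values, and *Foxp2* had a higher one. These values are not scaled by length. Per kilobase of annotated exon, *Foxd1*, *Foxo6* and *Foxp2* were close to each other, at 4.61, 6.86 and 6.54, that of *Foxp2* being a low estimate. EED-null cells had the highest levels of *Foxa1*, *Foxd1*, *Foxf2* and *Foxl2*, EZHIP cells had intermediate levels, and K27M cells had less of all 4, with *Foxf2* and *Foxl2* still at the limit of detection. *Foxo6* was instead highest in K27M cells, and *Foxp2* was lowest in EZHIP cells and differed little between the control and EED-null groups. In bulk RNA, more cells that express a gene and more RNA per cell cannot be told apart.

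**Figure D2:**
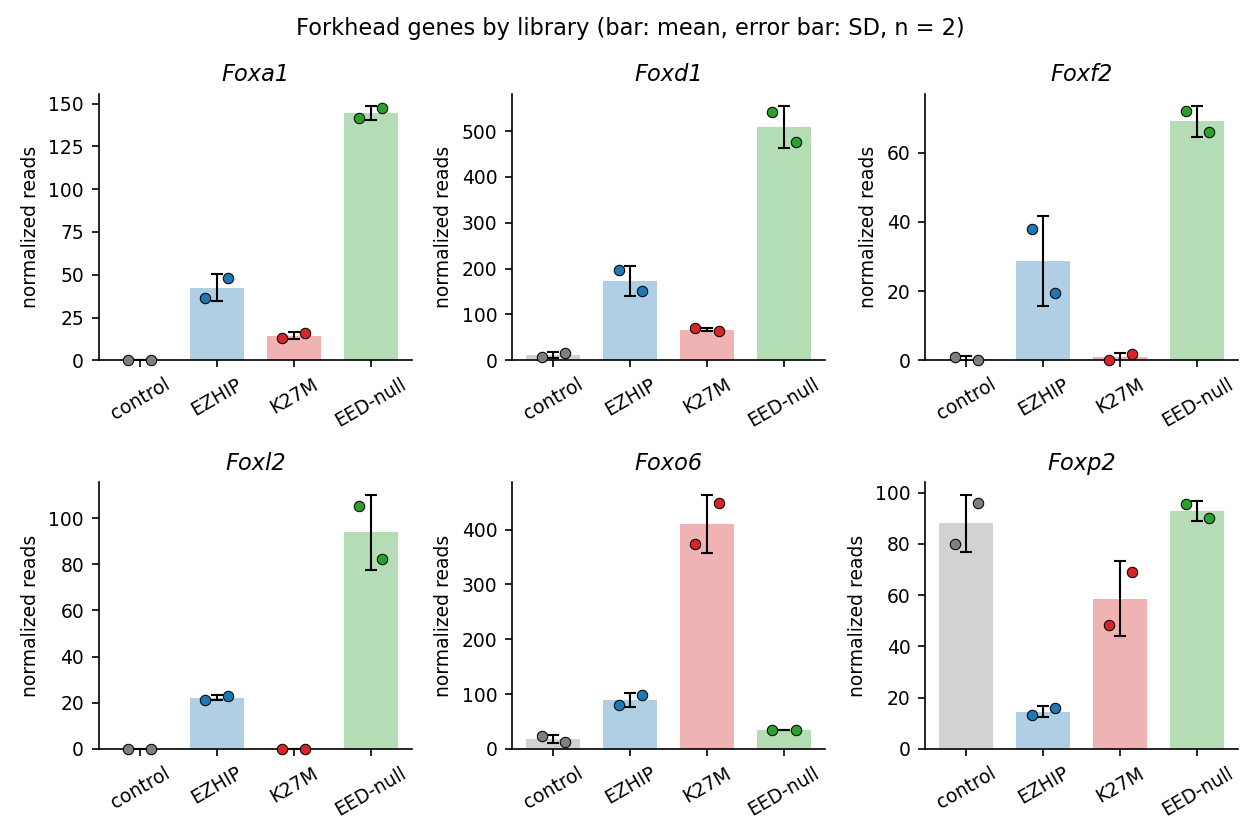
Normalized expression (y axis, deposited units) of the 6 forkhead genes in control, EZHIP, K27M and EED-null cells. Points are libraries, bars are means and error bars are the SD of 2 libraries. *Foxa1*, *Foxd1*, *Foxf2* and *Foxl2* peak in EED-null cells, *Foxo6* reaches 374 and 448 in K27M cells, and *Foxp2* is lowest in EZHIP cells, at 13.0 and 16.0.

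*Foxa1* encodes a pioneer factor that opens chromatin in endoderm and in hormone-responsive epithelia. The gene (ENSMUSG00000035451.6) has 2 exons and spans positions 58641618 to 58647108 of chromosome 12 in mm9, on the minus strand. Both control libraries were at 0. The EZHIP libraries were at 36.7 and 47.9, the K27M libraries at 13.0 and 15.7, and the EED-null libraries at 141 and 147. No library of one group fell within the range of another, and the order of the groups was the same whichever libraries were compared. Because a fitted difference from a group at 0 depends on the pseudocount, the fold over control is given as a lower bound at 3 reads per control library. *Foxa1* was at least 5.43-fold higher in K27M cells and at least 54.5-fold higher in EED-null cells than in control cells. The tests gave log2 differences of 3.94 (standard error 0.16, adjusted p = 4.44e-06 from limma) and 7.18 (standard error 0.16, adjusted p = 3.71e-07 from limma). Groups at 0 add no spread to the fit, so these errors do not cover the counting error of a value of 0. With means of 14.4 ± 1.95 (SD, n = 2) for K27M and 144 ± 4.17 for EED-null, K27M cells held 9.95% of the EED-null level. EZHIP cells, at 42.3 ± 7.91, held 29.3% of it and were at least 16.0-fold above control.

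*Foxd1* is a marker of the stromal progenitors of the kidney and is also used in the developing retina. It is a gene of 1 exon (ENSMUSG00000078302.3) on the plus strand of chromosome 13, from 99124200 to 99126660 in mm9. The control libraries were at 7.19 and 15.5, which are 7 and 21 reads. In EZHIP libraries *Foxd1* reached 196 and 150, in K27M libraries 69.6 and 64.7, and in EED-null libraries 541 and 476. The groups were again fully separated, with the same order as for *Foxa1*. K27M cells had 5.92-fold and EED-null cells 44.8-fold the control mean of 11.3 ± 5.88 (SD, n = 2). On the log2 scale the differences were 2.55 (standard error 0.33, adjusted p = 0.000524 from limma) and 5.45 (standard error 0.33, adjusted p = 1.70e-05 from limma). The EZHIP mean of 173 ± 32.5 was 34.1% and the K27M mean of 67.1 ± 3.44 was 13.2% of the EED-null mean of 508 ± 45.8. *Foxd1* was the only one of the 6 with another listed gene within 1 Mb. This neighbour, *Rgnef*, named for its position alone, lies 148080 bp away, and its mean was 52.2 for control, 173 for EZHIP, 70.2 for K27M and 152 for EED-null cells. By group means alone, *Rgnef* was lower in EED-null than in EZHIP cells while *Foxd1* was higher. The spread of *Rgnef* between libraries and a test of its difference are not given here.

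*Foxf2* acts in mesenchyme that receives hedgehog signals, such as the wall of the gut and the palate, and in pericytes of the brain. The gene (ENSMUSG00000038402.2, 2 exons) lies on the plus strand of chromosome 13, from 31717685 to 31723272. One control library held 1 read, a value of 1.03, and the other was at 0. One K27M library held 2 reads, a value of 1.75, and the other was at 0. The control and K27M libraries therefore overlapped, and their difference of 0.22 on the log2 scale (95% interval -1.23 to 1.66, adjusted p = 0.749 from limma) turned to -0.29 without control replicate 2 and to -0.51 without K27M replicate 2. At this depth no difference between K27M and control cells was detectable. EED-null libraries were at 72.1 and 65.9, and the log2 difference from control was 5.62 (standard error 0.59, adjusted p = 0.00018 from limma). By pooled reads the ratio was 159, with a 95% counting interval from 28.1 to 6348 that shows how little a single control read fixes it. EZHIP libraries were at 37.9 and 19.4, a mean of 28.6 ± 13.1 (SD, n = 2), which is 41.5% of the EED-null mean of 69.0 ± 4.38.

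*Foxl2* is a factor of the granulosa cells of the ovary, where it maintains female identity, and is also used in the pituitary and the eyelids. It is a gene of 1 exon (ENSMUSG00000050397.2) on the plus strand of chromosome 9, from 98856026 to 98858545. Both control libraries and both K27M libraries were at 0. The EZHIP libraries were at 21.3 and 22.8, and the EED-null libraries at 105 and 82.4. *Foxl2* was at least 35.5-fold higher in EED-null than in control cells, with a log2 difference of 6.56 (standard error 0.14, adjusted p = 3.08e-07 from limma). The EZHIP mean of 22.1 ± 1.06 (SD, n = 2), at least 8.33-fold above control, was 23.5% of the EED-null mean of 93.9 ± 16.3. A level in K27M cells was not detectable at this depth. It was at least 34.7-fold lower than in EED-null cells and at least 8.16-fold lower than in EZHIP cells.

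*Foxo6* belongs to the FoxO branch, whose members respond to insulin and growth factor signalling, and is known mainly from the brain. The gene (ENSMUSG00000052135.7) lies on the minus strand of chromosome 4, from 119939684 to 119959954. Control libraries were at 22.6 and 13.3, EZHIP libraries at 80.5 and 98.0, K27M libraries at 374 and 448, and EED-null libraries at 34.7 and 33.9. The groups did not overlap, and the order, K27M above EZHIP above EED-null above control, set *Foxo6* apart from the preceding genes. K27M cells, with 411 ± 52.8 (SD, n = 2), had 22.9-fold the control mean of 17.9 ± 6.57, a log2 difference of 4.48 (standard error 0.25, adjusted p = 1.31e-05 from limma). The EZHIP mean of 89.3 ± 12.4 was 4.98-fold that of control. In EED-null cells the mean of 34.3 ± 0.524 was 1.91-fold that of control, and the log2 difference of 0.94 (95% interval 0.32 to 1.56, adjusted p = 0.0131 from limma) missed the 2-fold requirement. Without control replicate 1, the higher control library, it was 1.30 (adjusted p = 0.00192 from limma) and met the requirement, while without control replicate 2 it was 0.58 (adjusted p = 0.0385 from limma) and after rescaling on the listed genes 0.56 (adjusted p = 0.0828 from limma).

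*Foxp2* is a repressor known from the brain circuits of vocal learning and speech and is also expressed in lung and gut. It is the longest of the 6 genes (ENSMUSG00000029563.10), with 19 annotated transcripts on the plus strand of chromosome 6 from 14851349 to 15391977. Control libraries were at 80.1 and 96.0, EZHIP libraries at 13.0 and 16.0, K27M libraries at 48.2 and 69.1, and EED-null libraries at 95.7 and 90.1. Both EZHIP libraries lay below all others, both K27M libraries lay below control, and the EED-null libraries lay within the control range. The control mean of 88.0 ± 11.2 (SD, n = 2) was 6.07-fold the EZHIP mean of 14.5 ± 2.08, the difference by which the table holds *Foxp2*. In EED-null cells, at 92.9 ± 3.91, the log2 difference from control was 0.08 (95% interval -0.42 to 0.58, adjusted p = 0.723 from limma), and it was -0.31 after the libraries were rescaled on the listed genes and -0.05 without control replicate 1. The K27M mean of 58.6 ± 14.7 differed from control by -0.59 on the log2 scale (adjusted p = 0.0354 from limma), under the 2-fold requirement. After rescaling on the listed genes this was -1.05 (adjusted p = 0.00411 from limma), which met it.

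Set against the listed genes, the forkhead counts were as follows. In K27M against control, 3 of the 6 genes were called higher and 0 lower, where 41.4% of all listed genes were called higher and 20% lower. In EED-null against control, 4 were called higher and 0 lower, against 39.9% and 25.1% of all listed genes. The K27M count was near the background share, and with 6 genes neither count says anything particular about forkhead genes. Both comparisons use the same control libraries. The table was selected on these libraries too, which favours a difference from control. The median log2 differences of the forkhead genes were 1.39 and 5.53, compared with 0.58 and 0.40 over all listed genes. Placing undetected groups at the limit of detection, without a pseudocount, gave medians of 1.24 and 4.93 for the forkhead genes and 0.56 and 0.41 for all listed genes. Rescaling on the listed genes moved the median of all genes in K27M against control from 0.58 to 0.15 and turned the split of called genes from 362 higher and 175 lower into 304 and 243, without changing which forkhead genes were called higher. In EED-null against control it moved the median of all genes from 0.40 to 0.01 and the split of called genes from 349 higher and 220 lower to 311 and 281.

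**Figure D3:**
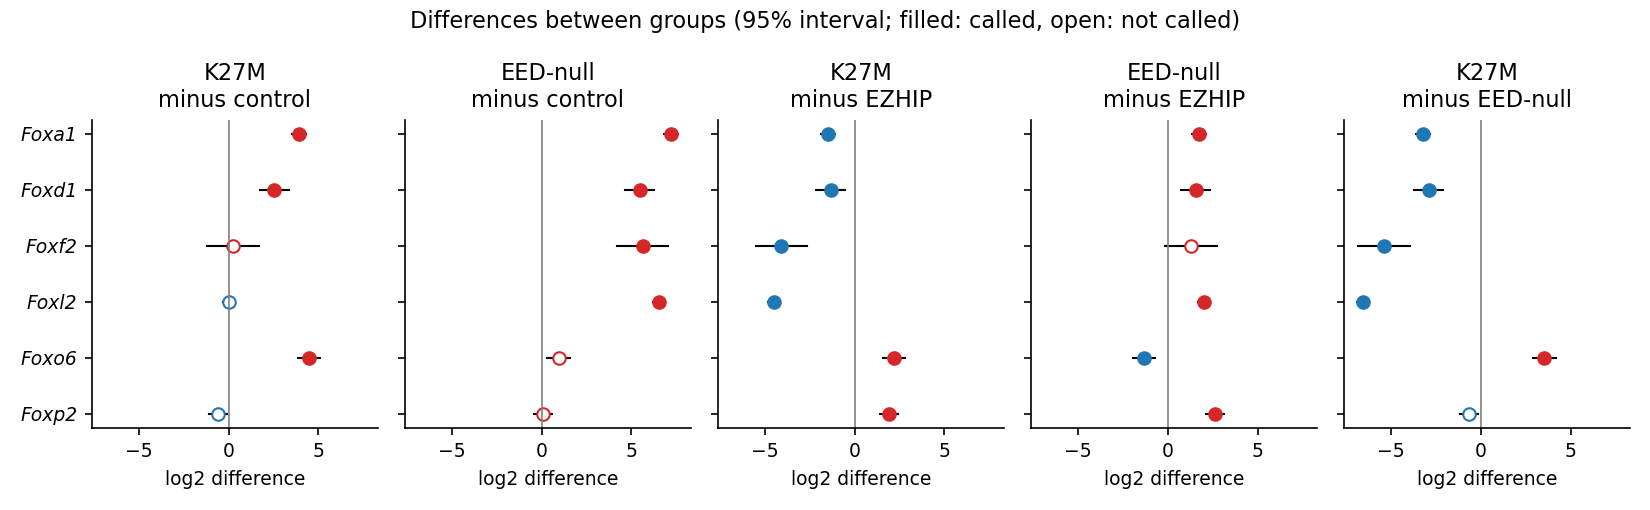
Log2 difference between 2 groups (x axis, first group minus second, on log2(value + 1)) for each forkhead gene (rows) in the 5 comparisons that were tested. Lines are 95% intervals, filled points are called genes and open points are not, with red for higher and blue for lower or 0 in the first group. *Foxo6* is the gene called higher in K27M than in EED-null cells, while *Foxa1*, *Foxd1*, *Foxf2* and *Foxl2* are called lower.

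The lines also differed when they were compared directly. K27M cells had less *Foxa1*, *Foxd1*, *Foxf2* and *Foxl2* and more *Foxo6* than EED-null cells, so 4 of the 6 genes were called lower and 1 higher, where 26.6% of all listed genes were called lower and 27.8% higher. The log2 difference was -3.25 for *Foxa1* (standard error 0.16), -2.90 for *Foxd1* (0.33), -5.40 for *Foxf2* (0.59) and -6.56 for *Foxl2* (0.14), with adjusted p-values from limma between 9.15e-07 and 0.00036. The *Foxf2* value rests on 2 reads in K27M cells, and the pooled reads gave a ratio of 0.0132 with a 95% counting interval from 0.00157 to 0.0486. *Foxl2* was at 0 in K27M cells, so the size of its difference depends on the pseudocount. It was -9.9 with a pseudocount of 0.1 and -4.3 with 5, and its standard error does not cover counting error. *Foxo6* was higher in K27M cells, with a log2 difference of 3.54 (standard error 0.25, adjusted p = 4.37e-05 from limma). *Foxp2* differed by -0.68 (adjusted p = 0.0235 from limma) and was not called, since the difference was under 2-fold.

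Against EZHIP cells, each of the 6 genes was called different in K27M cells, 2 of them higher and 4 lower, while 32.6% of all listed genes were called higher and 26.2% lower. These comparisons use the EZHIP libraries on which the table was selected, which favours a difference from EZHIP. *Foxo6*, at 4.61-fold, and *Foxp2*, at 4.05-fold the EZHIP mean, had log2 differences of 2.19 and 1.93 (adjusted p = 0.000336 and 0.000233 from limma). The 4 genes lower in K27M cells had log2 differences of -1.49 for *Foxa1*, -1.35 for *Foxd1*, -4.09 for *Foxf2* and -4.53 for *Foxl2*, with adjusted p-values from limma of at most 0.00974. The size for *Foxl2*, at 0 in K27M cells, was -7.8 with a pseudocount of 0.1 and -2.4 with 5. The call of *Foxd1* was lost without EZHIP replicate 1 (-1.15, adjusted p = 0.053 from limma) and without K27M replicate 2 (-1.29, adjusted p = 0.0501 from limma).

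EED-null cells had more *Foxa1*, *Foxd1*, *Foxl2* and *Foxp2* and less *Foxo6* than EZHIP cells, that is 4 genes called higher and 1 lower, where 25.1% of all listed genes were called higher and 19.8% lower. This comparison too uses the EZHIP libraries on which the table was selected. *Foxp2* had the largest of these differences, with 6.41-fold the EZHIP mean and a log2 difference of 2.61 (standard error 0.21, adjusted p = 0.000154 from limma). The table holds *Foxp2* for its low EZHIP level, and EED-null cells differed from control by 0.08. Its difference from EZHIP thus restates that selection. For *Foxl2*, *Foxa1* and *Foxd1* the log2 difference was 2.03, 1.76 and 1.56, with adjusted p-values from limma of at most 0.00668, and *Foxo6* differed by -1.35 (adjusted p = 0.00402 from limma). *Foxf2* differed by 1.31 (95% interval -0.13 to 2.76, adjusted p = 0.091 from limma) and was not called, its EZHIP libraries lying at 37.9 and 19.4. It was called with a pseudocount of 5 (adjusted p = 0.00632 from limma) and in a fit on the libraries of the 2 groups (adjusted p = 0.0332 from limma), and was further from a call with a pseudocount of 0.1 (adjusted p = 0.512 from limma) and without EZHIP replicate 2 (0.85, adjusted p = 0.336 from limma).

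The table also lists 34 other developmental transcription factors of the homeobox, GATA, SOX, T-box, ZIC and related families. By group means, EZHIP cells had more of 30 of the 34 and less of 4 than control cells, where the whole table held 495 and 380. This direction was set by the selection of the table and favours calls of higher against control. Against control, EED-null cells had 29 of them called higher and 1 lower, and K27M cells had 21 called higher and 3 lower. Over all listed genes, 39.9% were called higher and 25.1% lower without EED, and 41.4% and 20% with K27M. In K27M against EED-null cells, 1 of the 34 was called higher and 24 lower, where 27.8% and 26.6% of all listed genes were. Their median log2 differences were 7.16 in EED-null and 2.0 in K27M cells against control, or 5.92 and 2.12 with undetected groups at the limit of detection, beside 0.40 and 0.58 over all listed genes. K27M cells held a median of 14.2% (0% to 1905%) and EZHIP cells a median of 35.2% of the EED-null level over the 29 factors whose EED-null mean was over 2-fold that of control. The corresponding 4 forkhead genes, *Foxa1*, *Foxd1*, *Foxf2* and *Foxl2*, had between 23.5% and 41.5% in EZHIP cells and between 0% and 13.2% in K27M cells. The order EED-null above EZHIP above K27M held for all 4 of them and for 17 of the 29 other factors. These genes were kept for a high EED-null mean, which favours EED-null as the highest group. *Foxo6* and *Foxp2* were left out by this requirement, so the order is no finding about forkhead genes as a family. At most 3 reads in each K27M library were found for 2 of the 4 and for 5 of the 29. With 4 genes, no difference between the forkhead genes and the other factors was tested.

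**Figure D4:**
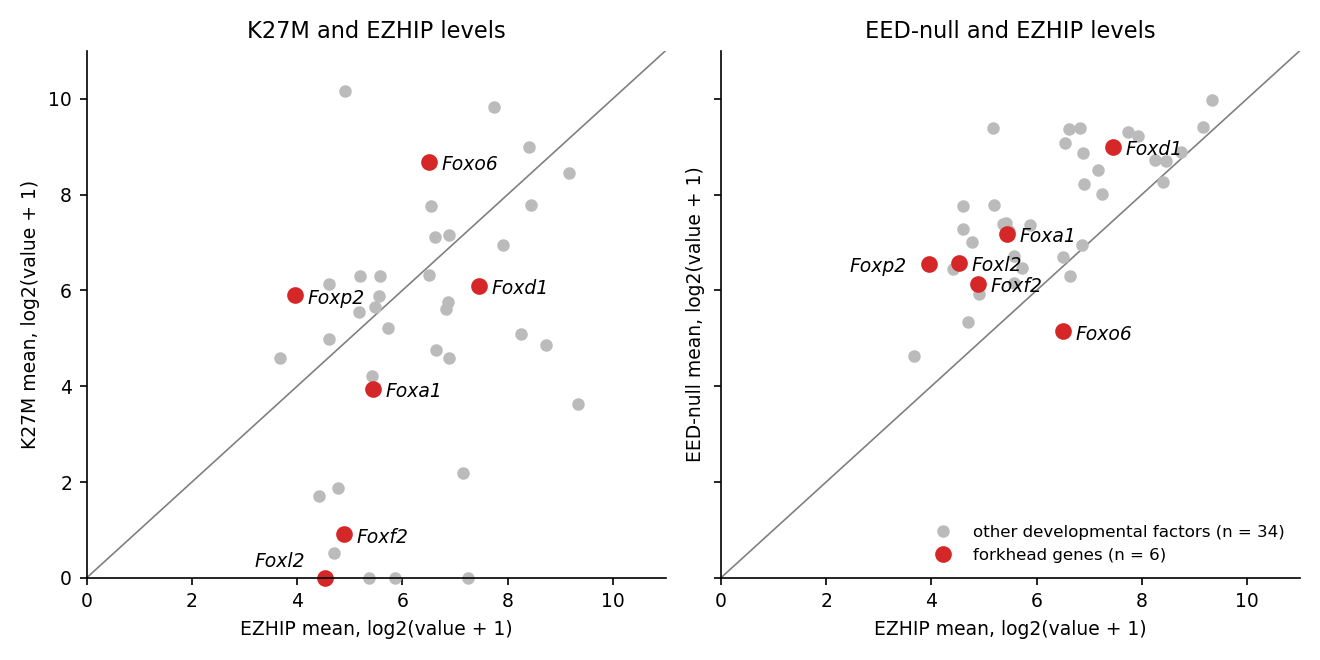
Mean level in K27M cells (left, y axis) and in EED-null cells (right, y axis) against the mean level in EZHIP cells (x axis), all as log2(value + 1), for the 6 forkhead genes (red) and 34 other developmental transcription factors (grey), with a line of equal levels. In K27M cells *Foxo6* and *Foxp2* lie above the line and the other 4 forkhead genes below it, and in EED-null cells only *Foxo6* of the 6 lies below it.

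Per kilobase of annotated exon, the order of the genes within a group could be compared. In EED-null cells *Foxd1* was highest, with a normalized value of 207 per kilobase, followed by *Foxa1* with 45.3, *Foxl2* with 37.3, *Foxf2* with 29.2, *Foxo6* with 13.1 and *Foxp2* with 6.90. In K27M cells *Foxo6* led with 157 per kilobase and *Foxd1* followed with 27.3. In control cells *Foxo6*, at 6.86, *Foxp2*, at 6.54, and *Foxd1*, at 4.61, were close to each other. The exon length of *Foxp2* sums over all of its transcripts, so its level per kilobase is a low estimate.

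Genes that are known to work with each forkhead factor were sparse in a table of selected genes. Their counts are to be read against 41.4% of all listed genes called higher and 20% lower with K27M, 39.9% and 25.1% without EED, and medians of 0.58 and 0.40 on the log2 scale. The control libraries were part of the selection of the table, which favours a difference from control. Of 29 partners of *Foxa1* and endoderm genes, 2 were listed, the heart and gonad factor *Gata4* and the adhesion gene *Epcam*, and both were called higher than control in each of the K27M and EED-null lines. *Gata4* was at 863 and 960 with K27M and at 632 and 633 without EED, a log2 difference of 0.52 for K27M minus EED-null (adjusted p = 0.174 from limma), where that of *Foxa1* was -3.25. Of 28 genes of the gonad around *Foxl2*, 11 were listed, of which K27M cells had 7 called higher and 1 lower, while EED-null cells had 8 called higher and 1 lower. Their median log2 differences from control were 2.14 in K27M and 2.36 in EED-null cells. In K27M against EED-null cells, 4 of the 11 were called higher and 3 lower, where 27.8% and 26.6% of all listed genes were. Of the 6 with the largest means, *Wt1*, a gonad and kidney factor, was called higher in K27M than in EED-null cells (log2 difference 4.22), with 1013 and 1277 against 58.2 and 62.0. *Inhbb*, which encodes a subunit of inhibins and activins, and *Pitx1*, a factor of hindlimb and pituitary, were called lower (-3.0 and -3.77), as *Foxl2* was. *Inhbb* was at 60.3 and 55.9 with K27M and at 495 and 452 without EED, and *Pitx1* was at 48.2 and 47.2 against 695 and 636. *Gata4*, *Ptgs2*, a prostaglandin synthase, and *Inhba*, another inhibin subunit, were called in neither direction (0.52, 0.72 and -0.50). The listed gonad genes thus had no common direction between these lines.

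Of 28 hedgehog and mesenchyme genes around *Foxf2*, 5 were listed, of which 2 were called higher in K27M cells, while EED-null cells had 1 called higher and 1 lower, with medians of 0.58 and 0.36. *Hhip*, an inhibitor of hedgehog ligands, was at 2.05 and 2.21 in control libraries, at 282 and 270 with EZHIP, at 28.7 and 28.0 with K27M and at 187 and 170 without EED. *Gli1*, a target gene of the pathway, had log2 differences from control of 0.58 in K27M and 0.36 in EED-null cells and was called in neither. *Ptch1*, with -0.50 and 0.39, was called in neither as well. *Wnt5a* was called higher with K27M (1.07), and *Boc* was called lower without EED (-1.09). Of 25 genes of renal stroma and nephron around *Foxd1*, 7 were listed, of which K27M cells had 4 called higher and 2 lower, while EED-null cells had 5 called higher and 2 lower. Over all listed genes the shares were 41.4% higher and 20% lower with K27M, and 39.9% and 25.1% without EED. With 5 and 7 genes, the counts of these 2 lists say little. The medians of the 7 renal genes were 3.11 with K27M and 4.35 without EED. Among them *Gdnf*, a growth factor that guides the ureteric bud, was called lower than control with K27M (log2 difference -2.13) and higher without EED (1.78). *Dcn* went the opposite way, called higher with K27M (3.11) and lower without EED (-2.36). *Wt1*, *Hoxd10* and *Hoxa11* were called higher in both lines, and *Fat4* was called lower in both.

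Of 29 target genes of FoxO factors, 5 were listed, of which K27M cells had 3 called higher and 1 lower, while EED-null cells had 1 called higher. Over all listed genes the shares were 41.4% higher and 20% lower with K27M, and 39.9% and 25.1% without EED. The medians were 1.70 and 0.47. *Cdkn1a*, an inhibitor of the cell cycle, and *Gadd45a*, a stress gene, were called higher in K27M cells, where *Foxo6* was highest, with log2 differences of 1.70 and 1.83. *Sesn3*, another stress gene that FoxO factors activate, was called lower there (-1.91). *Trim63* was called higher than control in both lines, with means of 10.9 with K27M and 29.6 without EED, where *Foxo6* was lower. *Ccnd1* was called in neither (0.56 and 0.47). The listed targets did not all follow the level of *Foxo6*. Of 26 neural genes around *Foxp2*, *Mef2c* alone was listed, and it was called higher in both. Of 35 Polycomb subunits, 2 were listed, of which *Pcgf5* was called higher in K27M cells (2.09) and *Phf19* was called in neither comparison with control. These lists were compiled from general knowledge of the factors, with earlier results of these data known, and membership does not show binding in MEFs.

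As a description of pattern, the listed genes with the highest Pearson correlation of log2(value + 1) over the 8 libraries were sought for each forkhead gene. The 8 libraries fall into 4 groups, so such values mainly compare 4 levels. *Foxa1* was closest to *Tbx20* (r = 0.998), *En2* and *Zdbf2*, and *Foxd1* to *Npnt* (r = 0.991), *1810011O10Rik* and *En2*. *Foxl2* was closest to *Nkx6-1* (r = 0.999), *Cd24a* and *Otx2*, and both *Nkx6-1* and *Otx2* were, like *Foxl2*, at 0 in the control and K27M groups, with EED-null means of 166 and 163. The genes most like *Foxf2* were *Rgs16* (r = 0.991), *Zic4* and *Hs3st3b1*. *Foxo6* resembled *Cebpb* (r = 0.985), *Upk3b* and *Podxl*, the latter 2 with K27M means of 2382 and 3406 against control means of 15.5 and 67.7. *Foxp2* was closest to *Plcl2* (r = 0.978), *Rgs9* and *Chrdl1*, each lowest in EZHIP cells. Among the forkhead genes themselves, r was 0.984 between *Foxa1* and *Foxd1* and 0.977 between *Foxf2* and *Foxl2*, while *Foxo6* and *Foxp2* had values between -0.35 and 0.28 with the other genes and with each other.

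Markers of other cell types moved between the lines as well. Of 6 epithelial markers 2 were listed, *Epcam* and *Krt14*. *Epcam* was at 6.16 and 3.69 in control libraries, at 21.3 and 10.3 with EZHIP, at 68.6 and 81.3 with K27M and at 38.8 and 20.4 without EED. *Krt14* was at 0 in control libraries, at 37.9 and 26.2 with EZHIP, at 40.8 and 59.4 with K27M and at 4.16 and 4.05 without EED. The endothelial marker *Kdr*, 1 listed of 5, was at 52.1 and 51.3 with EZHIP, at 157 and 222 with K27M and at 11.1 or less in control and EED-null libraries. These 3 genes were highest in K27M cells. Of 6 neural markers *Sox2* was listed, at 0 in both control and both K27M libraries, at 166 and 137 with EZHIP and at 245 and 270 without EED, which is the order of the groups for *Foxl2*. No marker of blood (of 5), of muscle (of 6) or of pluripotent or germ cells (of 5) was listed. Of the fibroblast markers, *Col3a1* was at 2206 and 2517 in K27M and at 5733 and 5641 in EED-null libraries, *Dcn* was called higher than control with K27M and lower without EED, and *Fap* was called lower without EED. K27M cells thus had 1 of the 3 called higher and 1 lower, and EED-null cells had 3 called lower. Over all listed genes, 41.4% were called higher and 20% lower with K27M, and 39.9% and 25.1% without EED. So few markers of a table selected on EZHIP do not show a shift of cell type. *Epcam*, *Krt14* and *Kdr* were called higher in K27M than in EED-null cells (log2 differences 1.38, 3.30 and 3.98), as *Foxo6* was, and *Sox2* was called lower (-8.01), as *Foxl2* was. Between these 2 lines, 27.8% of all listed genes were called higher and 26.6% lower with K27M. The part of these cell types in the forkhead values was not tested.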

How the data were processed

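RNA-seq libraries of MEFs were analysed in 4 groups of 2, with groups and replicate numbers taken from the sample labels. RNA was extracted with Trizol, RNA of FFT cells was added to each sample, and ribosomal RNA was depleted. The authors estimated reads per gene with RSEM 1.2.4 on an mm9 transcriptome, by their methods and the submitters' processing notes, and tested genes with EBSeq. Strand use in counting is not given in the sources used here. The deposited signal is a normalized value per gene and library, the estimated reads divided by 1 size factor, and the authors kept genes at least 2-fold different between EZHIP and control cells. Whether the added RNA entered the size factors is not given, and if it did not, a difference in total RNA between groups would not show. The value of 1 read was inferred for each library as the largest step that met 2 conditions. All values had to be multiples of 0.01 of a read, and at least 70% of those above 0 whole reads. At this step between 71.8% and 82.3% were whole reads, so no count model was fitted. All 875 genes were fitted by limma 3.58.1 (R 4.3.3) after a log2(value + 1) transformation, using group means, a common spread over the 8 libraries and Benjamini-Hochberg adjustment over all genes. The script was tested on simulated data. EZHIP against control was not tested.

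Bounds use 3 reads per library, and counting intervals are exact 95% binomial intervals that cover counting error only. Replicates differed by more than sampling noise, with a chi-square per gene between 1.51 and 3.51. Python 3.11.15, pandas 2.3.3, numpy 2.4.6, scipy 1.17.1 and matplotlib 3.10.9 were used for the other values. Gene positions came from GENCODE vM1 on mm9, in which a microRNA on the same strand within *Foxp2* was the one annotated gene to overlap a forkhead gene. Promoters came from RefSeq on GRCm38.p6, with *Foxo6* and *Foxp2* unmatched. Named genes were all those with a symbol starting with Fox, the 3 genes most correlated with each, and up to 6 listed members of each gene list by mean level. *Rgnef*, a neighbour of *Foxd1*, is named outside this rule. The forkhead genes and the gene lists were chosen with earlier results of these data known. As alternatives, the pseudocount was set to 0.1 or 5, genes with a mean under 5 were dropped (none of the 6), single libraries were omitted, values were rescaled to a common median ratio over the table, and fits were made with a replicate block, on 2 groups, by limma with a trend and with the adjusted p-value as the only criterion. ChIP-seq and tumour data were not analysed here.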

Additional observations from a re-analysis of the deposited data

Results flagged for a closer look

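By a direct test with limma over all listed genes, 5 of the 6 forkhead genes were called different between K27M and EED-null cells. Of all listed genes, 27.8% were called higher and 26.6% lower in K27M than in EED-null cells, so a difference between these lines was common. The log2 difference of K27M minus EED-null was -3.25 for *Foxa1*, -2.90 for *Foxd1*, -5.40 for *Foxf2* and -6.56 for *Foxl2*, each lower in both K27M libraries than in both EED-null libraries. For *Foxo6* it was 3.54, higher in both K27M libraries than in both EED-null libraries. The adjusted p-values of these 5 genes from limma lay between 9.15e-07 and 0.00036, and the calls held in each of the alternatives tried. The size for *Foxl2*, at 0 in K27M cells, moved with the pseudocount, to -9.9 with 0.1 and -4.3 with 5. *Foxp2* differed by -0.68 (adjusted p = 0.0235 from limma) and was not called, since the difference was under 2-fold. Each line was derived once, so the transgene or deletion and the line cannot be told apart. With 2 libraries in each group, single libraries were not examined as outliers.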

How the results depend on the processing

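The number of forkhead genes called stayed within 1.5 times its value under each alternative. Without 1 library it was 3 in each fit of K27M against control, 4 to 5 in EED-null against control, 5 to 6 in K27M against EZHIP, and 5 in each fit of the other 2 comparisons. Some alternatives could change little. Omitting a library of a group outside a comparison leaves its log2 difference as it was, and the filter on the mean dropped none of the 6 genes. The adjusted p-value as the only criterion cannot lose a call. Of 480 values of single genes under the alternatives, 467 kept direction and call, and this number includes such values. In 4 the direction turned, each for a difference that was not called: *Foxf2* in K27M against control, to -0.29 without control replicate 2 and -0.51 without K27M replicate 2 (range -0.51 to 0.95 with each library left out), and *Foxp2* in EED-null against control, to -0.31 after rescaling and -0.047 without control replicate 1 (range -0.047 to 0.21). In 2, both for *Foxd1* in K27M against EZHIP, the call was lost (-1.15 and -1.29). In 7 a call was gained: *Foxp2* in K27M against control (-1.05 after rescaling), *Foxo6* in EED-null against control (1.30 without control replicate 1), *Foxf2* in EED-null against EZHIP (1.19 with a pseudocount of 5 and 1.31 in a fit on 2 groups), and 3 that rested on the adjusted p-value alone. The cause was not tested beyond what each alternative changes. The adjusted p-value alone raised the number of listed genes called in EED-null against EZHIP from 393 to 601. The log2 difference of *Foxa1* between EZHIP and control, 5.42 with a pseudocount of 1, was 8.72 with 0.1 and 3.23 with 5.

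The replicate numbers of the labels are not said to mark a shared culture or day, and deviations of same-numbered libraries correlated between -0.0893 and 0.105, so the numbers were not treated as pairs. A replicate block changed the call of no forkhead gene and moved the listed genes called in K27M against control from 537 to 536 and in EED-null against EZHIP from 393 to 389. Values of a few reads, as for *Foxf2* in control and K27M cells, and groups at 0 limit the precision of the folds.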
